A study of Mus musculus with 4 samples.

Results

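Clustered protocadherins were taken as the entries of the deposited gene tables whose symbol starts with Pcdha, Pcdhb or Pcdhg. There were 59 of them among 24490 entries, 15 in the alpha, 22 in the beta and 22 in the gamma cluster. The tissue was mouse amygdala, both sides, of the genotype NpyCre/+;TRAPlox/lox, in which Cre is made under control of the neuropeptide Y gene and acts on a lox allele of a ribosome tag. Translating ribosome affinity purification (TRAP) pulls down the tagged ribosomes with their RNA, giving the immunoprecipitate (IP), which was compared with total RNA (input). Both groups carried the same genotype, with 2 IP and 2 input libraries, each from a pool of 3 mice and made from 200 ng of RNA. By the series' design text each IP was paired with its own input, a pairing that the main test did not use. Age and treatment of the mice are not stated in the labels. No Cre-negative or mock precipitation was analysed here. Values are FPKM, fragments per kilobase of transcript, scaled for the mapped fragments of a library.

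Clustered protocadherins are cell-surface proteins of the cadherin superfamily that bind copies of themselves on neighbouring membranes. A neuron is known to pick a few of the alternate isoforms by chance choice of promoter, which gives it a surface identity used in self-avoidance of its branches and in synaptic wiring. The C-type isoforms (Pcdhac1, Pcdhac2, Pcdhgc3, Pcdhgc4 and Pcdhgc5) are known to be used more constantly. Gamma isoforms, Pcdhgc4 above all, are known to be needed for survival of cortical interneurons, a class that includes many Npy cells.

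The clusters differ in how far a read can be given to 1 member. All 59 entries matched a RefSeq gene (GRCm38.p6, the build of mm10), and all lie on the plus strand of chromosome 18. The alpha genes run from 36930285 to 37187660, the beta genes from 37264998 to 37521419 and the gamma genes from 37661945 to 37841872. Every beta transcript has 1 exon and shares no base with another member. Every alpha and gamma transcript has 4 exons, a long variable first exon followed by constant exons common to its cluster. The first constant exon of the gamma cluster, at 37825021 to 37825079, is used by all 22 gamma members, and that of the alpha cluster, at 37156155 to 37156213, by 14 of the 15 alpha entries. The exception is Pcdha4-g (Gm37013 in RefSeq), whose transcript joins the first exon of Pcdha4 to the gamma constant exons, and which shares bases with 23 other members. The median share of transcript bases held by no other member was 46.0% in the alpha, 55.0% in the gamma and 100.0% in the beta cluster. Pcdha4 had none, since Pcdha4-g holds its first exon and the other alpha members hold the rest.

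**Figure D1:**
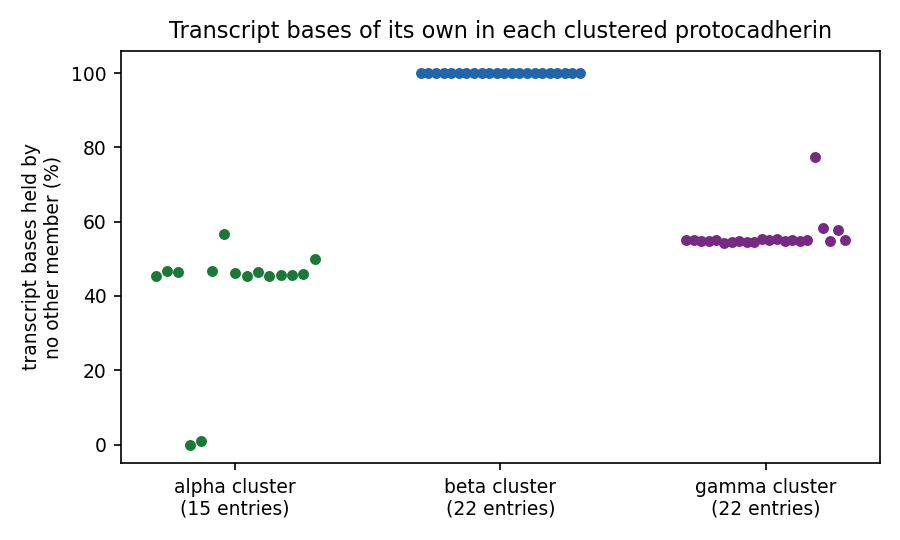
Share of the transcript bases of each member (vertical axis, percent) that no other member holds, by cluster, with 1 point per entry (horizontal place within a cluster has no scale). Beta genes sit at 100.0%, most alpha and gamma entries near 46.0% and 55.0%, and Pcdha4 and Pcdha4-g near the bottom of the axis.

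The alpha and gamma clusters were listed almost wholly at 0. In all 4 libraries 14 of 15 alpha and 20 of 22 gamma entries were at 0, against none of the 22 beta genes, and against 21.7% of all 23210 entries other than small RNAs. None of the members had a failed status. A listed 0 in these tables need not mean absence of RNA, since Rpl26, a ribosomal protein gene that every cell uses, was also listed at 0 in all 4 libraries. The alpha and gamma zeros are therefore given as listed, and how Cufflinks divided the reads of the shared exons was not tested.

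What was listed above 0 went to 3 C-type isoforms, and to different ones in different libraries. Pcdhac2, the C-type isoform at the end of the alpha cluster, stood at 0 in the input libraries, as listed, and at 53.8 and 56.3 FPKM in IP replicates 1 and 2. Pcdhgc3 was listed at 49.8 FPKM in input replicate 1 and at 0 in the other 3 libraries. Input replicates of one tissue thus disagreed on whether this gene was listed at all. Pcdhgc5, the last gene of the gamma cluster, was at 64.5 and 128 FPKM in input replicates 1 and 2 and at 56.8 and 57.5 FPKM in IP replicates 1 and 2. Both IP values of Pcdhgc5 lay below both input values, but the input values differed by far more than the gap between the groups. Pcdhac1 and Pcdhgc4, the remaining C-type isoforms, were listed at 0 in every library.

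Among all 12416 genes tested with limma for IP against input, 70.9% passed an adjusted p of 0.05, 37.0% of them upward and 33.9% downward as shares of all tested. Only 10 of the 59 members reached the filter of 1 FPKM in at least 2 libraries, namely Pcdhac2, Pcdhgc5 and 8 beta genes. Pcdhac2 reached the filter through the IP libraries alone, so that its outcome was set by the zeros listed in input, and neither a test nor a fold is given for it. Pcdhgc5 did not pass (log2 change -0.66, SE 0.28; limma, adjusted p = 0.0775). It did pass downward once the paired replicates were set as a block (limma, adjusted p = 0.0100) and without input replicate 1, the library in which Pcdhgc3 was listed (log2 change -1.15, limma, adjusted p = 0.00392). The call also turned with scaling, at an adjusted p of 0.0194 after rescaling each library to the same sum and 0.0238 with quantile normalization (limma). In other settings Pcdhgc5 lay farther from the threshold than in the main test. Its adjusted p was 0.288 with the robust option of eBayes, 0.176 without the filter, 0.156 with correction for transcript length and 0.103 with size factors (limma).

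Listed levels were also summed over the entries of a cluster. The gamma entries summed to 114 and 128 FPKM in input replicates 1 and 2 and to 56.8 and 57.5 FPKM in IP, a ratio of IP to input of 0.471. The alpha sum is the level of Pcdhac2 alone. Alpha and gamma together, a sum chosen after the values were seen, came to 114 and 128 FPKM in input and 111 and 114 FPKM in IP. The joint ratio was 0.925, and the lower input value of 114.3 lay just above the higher IP value of 113.8. After rescaling it was 0.735, and the ratio for gamma alone was 0.374. With 2 libraries a group, no exact permutation test can go below 0.333, so no test is given for sums.

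**Figure D2:**
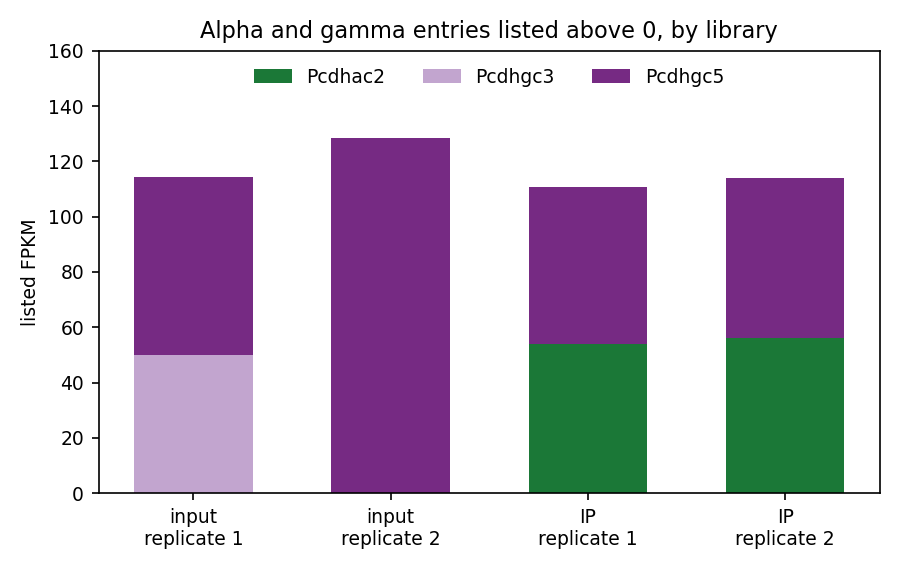
Listed FPKM (vertical axis) of the 3 alpha and gamma entries above 0, stacked, for each of the 4 libraries. Input replicate 1 holds Pcdhgc3 and Pcdhgc5, input replicate 2 holds Pcdhgc5 alone, both IP libraries hold Pcdhac2 and Pcdhgc5, and the stacks end between 111 and 128 FPKM.

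The beta genes, free of shared exons, were all listed above 0 in every library. They encode protocadherins without the constant cytoplasmic end of the alpha and gamma proteins, and are numbered in their order along the chromosome. Because the genes are close paralogs, reads that map to several of them could be split among them, and the labels do not say how such reads were counted. Levels ran from a mean of 0.0515 FPKM over the 4 libraries for Pcdhb1 to 2.69 FPKM for Pcdhb17. Read as 2 SD of counting error on either side of an FPKM, the deposited confidence limits put about 1499 and 1706 reads in the beta cluster in input and 1696 and 1424 in IP. This gives a counting error of 2.47% to 2.69% for the summed level in each library.

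The same 3 genes led the cluster in each library. Pcdhb17, at 37485021 to 37488290, was at 2.74 and 2.96 FPKM in input replicates 1 and 2 and at 2.75 and 2.33 FPKM in IP replicates 1 and 2. Pcdhb20 was at 2.50 and 2.86 FPKM in input and at 2.13 and 2.50 FPKM in IP. Pcdhb9 was at 2.27 and 2.37 FPKM in input and at 2.11 and 2.56 FPKM in IP. For all 3 the IP values overlapped the input values, and the order among them changed between libraries. Their joint share of the beta sum was 34.4% and 33.9% in input and 31.5% and 33.1% in IP. At the other end, Pcdhb1, the gene nearest to the alpha cluster, was at 0.0412 and 0.0597 FPKM in input and at 0.0181 and 0.0869 FPKM in IP, with about 2 and 3 implied reads in the input libraries. Pcdhb2, Pcdhb4 and Pcdhb21 followed, between 0.148 and 0.446 FPKM in every library.

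**Figure D3:**
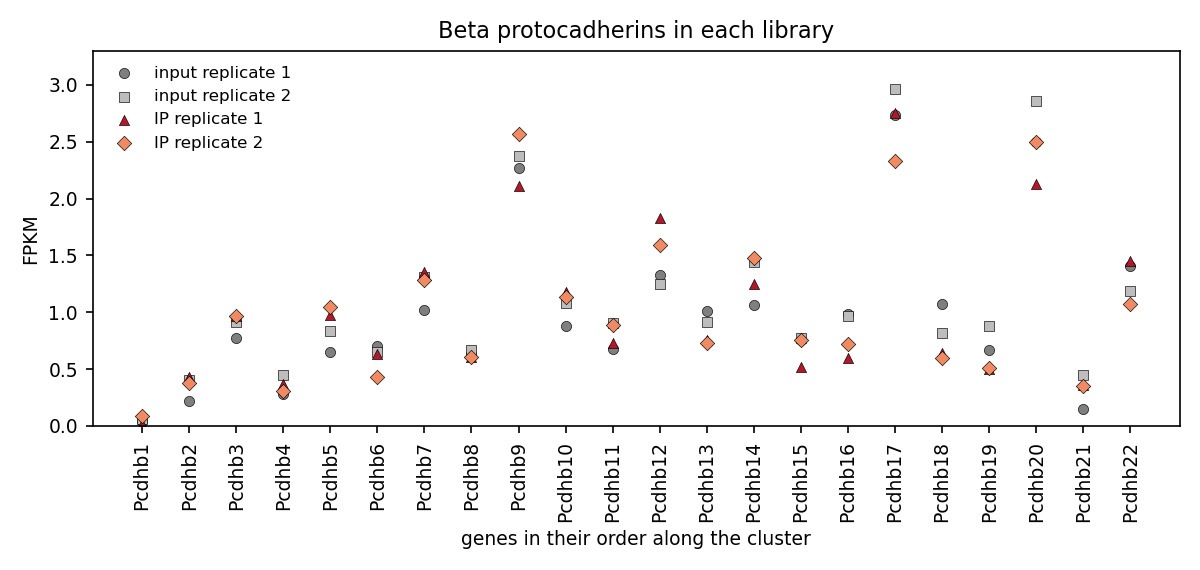
FPKM (vertical axis) of the 22 beta genes in their order along the cluster (horizontal axis), with 1 point for each of the 4 libraries. Pcdhb9, Pcdhb17 and Pcdhb20 stand above 2.1 FPKM in every library, and the input and IP points of most genes lie close together.

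The profile across the beta genes was much alike in IP and input. Across the 22 genes, which share libraries and depth, Pearson's r of log2(FPKM + 1) was 0.962 for the pair of input libraries and 0.965 for the IP pair, and an IP set against an input library gave 0.916 to 0.960. The median absolute difference of the same log2 values was 0.140 for the input pair and 0.082 for the IP pair. It ran from 0.089 to 0.173 over the 4 pairs of an IP with an input library, so the spread between groups was close to that between input replicates.

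None of the 8 tested beta genes differed between IP and input past the threshold, in a comparison where 70.9% of all genes tested did. Of the 1784 genes whose mean FPKM lay between those of the lowest and highest tested beta gene (1.07 to 2.69), 65.2% passed, 10.7% upward and 54.6% downward. The beta sum was 22.97 ± 1.65 FPKM (SD, n = 2) in input and 22.2 ± 0.12 in IP, a ratio of 0.969, and both IP values lay within the range of the input values. The 8 log2 changes ran from -0.15 for Pcdhb20 to 0.24 for Pcdhb12, with a median of 0.04 against 0.03 for all genes tested. Their 95% intervals together spanned -0.40 to 0.47, so changes beyond 1.39-fold on the log2(FPKM + 1) scale lay outside all of them, a scale on which changes of such low genes are understated. The smallest adjusted p was 0.0595 (limma, Pcdhb12), and 1 of the 8 had an unadjusted p under 0.05.

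Pcdhb12 came closest to a rise. It was at 1.33 and 1.25 FPKM in input replicates 1 and 2 and at 1.83 and 1.59 FPKM in IP replicates 1 and 2, a ratio of mean FPKM of 1.33 (log2 change 0.24, SE 0.10). Both IP values lay above both input values, though the confidence limits listed for the libraries overlapped between the groups. It passed with median-of-ratios size factors (limma, adjusted p = 0.037) and without the trend in eBayes (limma, adjusted p = 0.0279). Pcdhb14, the fifth by level, was at 1.06 and 1.44 FPKM in input and at 1.25 and 1.48 FPKM in IP, which overlapped (log2 change 0.07, SE 0.12; limma, adjusted p = 0.597). It passed upward with correction for transcript length (log2 change 0.50, limma, adjusted p = 0.00878), where Pcdhb12 did not (limma, adjusted p = 0.0837). Pcdhb14 also passed upward with quantile normalization (0.56, limma, adjusted p = 0.0126). The length correction took GENCODE lengths, which can differ from the RefSeq lengths given below. Pcdhb7, of 3506 RefSeq bases against 3438 for Pcdhb14, moved only from 0.10 to 0.14 with it.

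The sign of the beta result rested on the scaling. After rescaling to the same sum, Pcdhb17 and Pcdhb20 passed downward, with log2 changes of -0.37 and -0.39 (limma, adjusted p = 0.0126 and 0.0143), and the beta median was -0.17. That rescaling moved the median of all genes to -0.27. The beta median lay above this value, while Pcdhb17 and Pcdhb20 lay below it. Before rescaling the beta median was 0.04 and that of all genes 0.03. On the log2(FPKM + 1) scale a shift of a whole library is understated for genes as low as these. With quantile normalization 6 of the 8 passed upward, with a beta median of 0.51 against 0.05 for all genes. Of all genes tested, 35.3% passed upward and 30.3% downward with quantile normalization. In this setting Pcdhb12 changed by 0.71 and Pcdhb7 by 0.60, and Pcdhb17 and Pcdhb20 turned to 0.23 and 0.22, neither past the threshold. Pcdhb22 turned from -0.03 to 0.46 (limma, adjusted p = 0.0178). After rescaling Pcdhb7, Pcdhb9, Pcdhb10 and Pcdhb14 turned below 0, to between -0.23 and -0.05, none past the threshold.

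All 22 beta genes, tested or not, could be set side by side by their FPKM. Of the 22, 11 had a higher and 11 a lower mean in IP, with ratios from 0.655 for Pcdhb18 to 1.36 for Pcdhb5. Both IP values lay above both input values for 4 genes (Pcdhb3, Pcdhb5, Pcdhb10 and Pcdhb12) and below both for 6 (Pcdhb6, Pcdhb8, Pcdhb13, Pcdhb16, Pcdhb18 and Pcdhb19). Groups that do not overlap were thus found for 10 of 22 beta genes, while 82.9% of the 15377 genes above 0 in all libraries showed them, 38.4% upward and 44.5% downward. The listed confidence limits of the IP libraries overlapped those of the input libraries for all 22. Pcdhb5 was at 0.654 and 0.833 FPKM in input and at 0.978 and 1.04 FPKM in IP.

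The 3 lowest ratios belonged to the 3 longest beta transcripts, an observation made after the values were seen. Pcdhb16 was at 0.987 and 0.970 FPKM in input replicates 1 and 2 and at 0.602 and 0.723 FPKM in IP replicates 1 and 2. Pcdhb18 was at 1.07 and 0.813 FPKM in input and at 0.639 and 0.596 FPKM in IP. Pcdhb19 was at 0.667 and 0.882 FPKM in input and at 0.505 and 0.513 FPKM in IP. All IP values of these genes lay below their input values, at ratios of 0.677, 0.655 and 0.657. Their RefSeq transcripts are 5271, 5039 and 4714 bases long, against 2340 to 3787 bases for the other 19, whose ratios ran from 0.774 to 1.36. None of the 3 reached the filter, and without the filter Pcdhb16 alone of the 22 passed (log2 change -0.25; limma, adjusted p = 0.0351, beside 18020 genes tested). Of those 18020 genes, 28.9% passed downward.

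Ratios also tended to be lower toward the gamma side of the cluster. Pearson's r of position with log2 transcript length was 0.27 across the 22 genes, but all 3 genes over 4000 bases lay on the gamma side. Of the 11 genes on the alpha side (Pcdhb1 to Pcdhb11), 8 had a higher and 3 a lower mean in IP. Of the 11 on the gamma side (Pcdhb12 to Pcdhb22), 3 had a higher and 8 a lower one. Some ratios were near 1, such as 1.01 for Pcdhb9, 1.02 for Pcdhb11 and 1.04 for Pcdhb1. On the gamma side that of Pcdhb22 was 0.973. The FPKM of the alpha-side genes summed to 8.14 and 9.64 in input and 9.38 and 9.68 in IP. Those of the gamma-side genes summed to 13.7 and 14.5 in input and 12.8 and 12.6 in IP, where the groups did not overlap. The gamma-side sums include the 3 longest genes, which alone summed to 2.73 and 2.67 in input and 1.75 and 1.83 in IP. The other 19 beta genes summed to 19.1 and 21.5 in input and 20.4 and 20.5 in IP, which overlapped. Across the 22 genes, Pearson's r of the log2 change was -0.47 with position and -0.54 with log2 transcript length. Among the 19 genes under 4000 bases these values were -0.32 and -0.08. Across all 12343 tested genes with a GENCODE transcript length, r of the log2 change with log2 length was -0.31, so longer transcripts tended to lie lower in IP in these libraries as a whole. Position, length and 3 particular genes cannot be told apart over so few points.

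**Figure D4:**
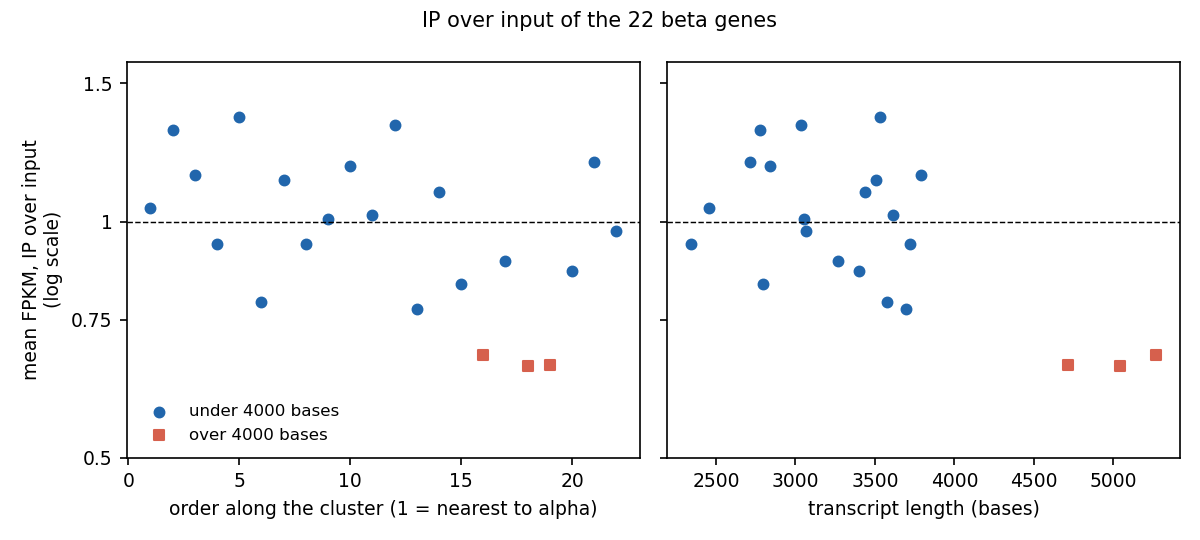
Ratio of mean FPKM, IP over input (vertical axis, log scale), of the 22 beta genes against their order along the cluster (left) and transcript length in bases (right). The dashed line marks equal means, squares mark the 3 genes over 4000 bases, and these lie between 0.655 and 0.677, below the other 19.

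Shares within the beta sum do not depend on how a library is scaled. The largest gain in share was that of Pcdhb12, from 6.09% and 5.18% in input to 8.25% and 7.12% in IP. The mean share of Pcdhb5 went from 3.23% to 4.54%. Pcdhb18 had the largest loss, from 4.92% and 3.37% to 2.88% and 2.67%. In these 3 genes the groups did not overlap, though for Pcdhb18 the input libraries lay farther apart than the groups. Such a split does not set these genes apart. No background was computed for shares, and by FPKM 82.9% of the 15377 genes above 0 in all libraries did not overlap between the groups. Shares were also higher without overlap in IP for Pcdhb2, Pcdhb3, Pcdhb7 and Pcdhb10. They were lower without overlap for Pcdhb8, Pcdhb13, Pcdhb16, Pcdhb19 and Pcdhb20. The 5 highest genes together held 45.1% to 46.9% of the sum in every library.

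Genes known to act with clustered protocadherins were taken from a list of 45, of which 43 reached the filter. Of these, 8 rose, 24 fell and 11 did not pass, with a median log2 change of -0.24 against 0.03 for all genes tested. That is 18.6% higher and 55.8% lower, against 37.0% and 33.9% of all genes tested, shares that also stand as background to the counts of each group described next. After rescaling 2 (4.65%) were higher and 35 (81.4%) lower, against 2232 and 6711 of the 12416 genes tested, the latter 54.1%. With correction for transcript length 10 (23.3%) were higher and 12 (27.9%) lower, with a median of -0.04, against 35.5% and 30.3% of all genes, so that the share lower was near the background.

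CTCF and the cohesin ring bring the chosen protocadherin promoter to its enhancer. Of 11 genes in this group, 1 rose, 7 fell and 3 did not pass. Ctcf itself was at 18.9 and 18.3 FPKM in input and 17.6 and 16.8 FPKM in IP and did not pass (limma, adjusted p = 0.16). It passed downward after rescaling (log2 change -0.43; limma, adjusted p = 0.000814) and with quantile normalization (-0.24; limma, adjusted p = 0.0116). Pds5a, a regulator of cohesin release, was at 8.37 ± 0.27 FPKM in input and fell to 4.23 ± 0.07 in IP (SD, n = 2, as for all means below; log2 change -0.84). Nipbl, the cohesin loader, and Stag1, a cohesin subunit, fell by 0.67 and 0.48 on the log2 scale, calls that were lost with correction for transcript length (limma, adjusted p = 0.0837 and 0.0824). Smc1a, a core cohesin subunit, rose by 0.26, but its change was -0.059 after rescaling. Its call was also lost with quantile normalization (limma, adjusted p = 0.187), without IP replicate 1 (0.0526) and without input replicate 1 (0.0785).

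DNA methylation and silencing factors keep unchosen promoters shut. Of 7 tested genes, 1 rose, 4 fell and 2 did not pass, and Dnmt3b, which methylates these promoters in early development, was under the filter at no more than 0.136 FPKM in input and listed at 0 in IP. Dnmt3a, a de novo methyltransferase, fell from 9.76 ± 0.64 to 4.45 ± 0.67 FPKM (log2 change -0.99). Atf7ip, a partner of the methyltransferase Setdb1, and Smchd1, a chromatin silencer of this locus, changed by -0.93 and -0.45. The Smchd1 call was lost with quantile normalization and with correction for transcript length (limma, adjusted p = 0.116 and 0.195). Trim28, a corepressor, rose by 0.34, a change of 0.0030 after rescaling and 0.022 with quantile normalization, neither of which passed (limma, adjusted p = 0.96 and 0.705).

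Proteases that cut protocadherins at the membrane were mixed, with 3 of 8 rising, 2 falling and 3 not passing. Psenen, a subunit of gamma-secretase, was 2.03-fold higher, at 24.5 ± 1.16 FPKM in input against 49.7 ± 2.03 in IP (log2 change 0.99, limma, adjusted p = 4.84e-05). Its change was smaller in some other settings. No gene of the list rose by more than 0.58 with correction for transcript length or 0.74 with quantile normalization. The gamma-secretase genes Ncstn and Psen2 rose by 0.27 and 0.26, but their changes were -0.050 and -0.025 after rescaling. The Ncstn call was lost too with quantile normalization (limma, adjusted p = 0.0743) and without IP replicate 2, input replicate 1 or input replicate 2 (limma, adjusted p = 0.081, 0.115 and 0.0675). That of Psen2 was lost without IP replicate 1, IP replicate 2 or input replicate 1 (limma, adjusted p = 0.129, 0.0767 and 0.193), without the filter (0.0806) and with correction for transcript length (0.477). Adam10, the main sheddase of gamma protocadherins, fell by 0.53 on the log2 scale, and Adam17 was at 2.17 and 1.86 FPKM in input but at 0 and 0.531 FPKM in IP replicates 1 and 2.

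Among kinases and binding partners, 2 of 9 tested genes rose, 6 fell and 1 did not pass. Ptk2b, which encodes the kinase Pyk2 that alpha and gamma cytoplasmic domains inhibit, fell from 174 ± 3.37 to 70.4 ± 4.99 FPKM (log2 change -1.30). Prkcd, a protein kinase C gene, went down from 3.56 ± 0.29 in input to 1.02 ± 0.36 FPKM in IP (log2 change -1.19), and Marcks, a protein kinase C substrate, fell by 0.89 on the log2 scale. Fyn, a Src-family kinase gene, rose by 0.35, with changes of 0.016 after rescaling and 0.036 with quantile normalization that did not pass (limma, adjusted p = 0.811 and 0.584). Nlgn2, the neuroligin of inhibitory synapses, rose by 0.30, with changes of -0.032 after rescaling and -0.0038 with quantile normalization.

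The WAVE complex links alpha protocadherins to actin through Rac. Of 8 genes, 1 rose, 5 fell and 2 did not pass. Cyfip1, at 11.6 ± 1.22 FPKM in input, fell to 4.95 ± 0.28 in IP (log2 change -1.08), and Wasf1 and Cyfip2, also subunits of the complex, changed by -0.68 and -0.41. The Cyfip2 call was lost with correction for transcript length (limma, adjusted p = 0.0835). Brk1, its smallest subunit, rose from 173.5 ± 0.05 to 246 ± 8.09 FPKM (log2 change 0.50), which did not pass with correction for transcript length (0.097; limma, adjusted p = 0.135) or quantile normalization (0.0056; limma, adjusted p = 0.919). Rac1 was at 174 and 171 FPKM in input and 182 and 184 FPKM in IP and did not pass (log2 change 0.08; limma, adjusted p = 0.132). Its sign followed the scaling, with passes downward after rescaling (-0.26; limma, adjusted p = 0.00216) and with quantile normalization (-0.38; 0.000745). It passed upward with size factors (0.14; limma, adjusted p = 0.0254) and with correction for transcript length (0.18; 0.0118).

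**Figure D5:**
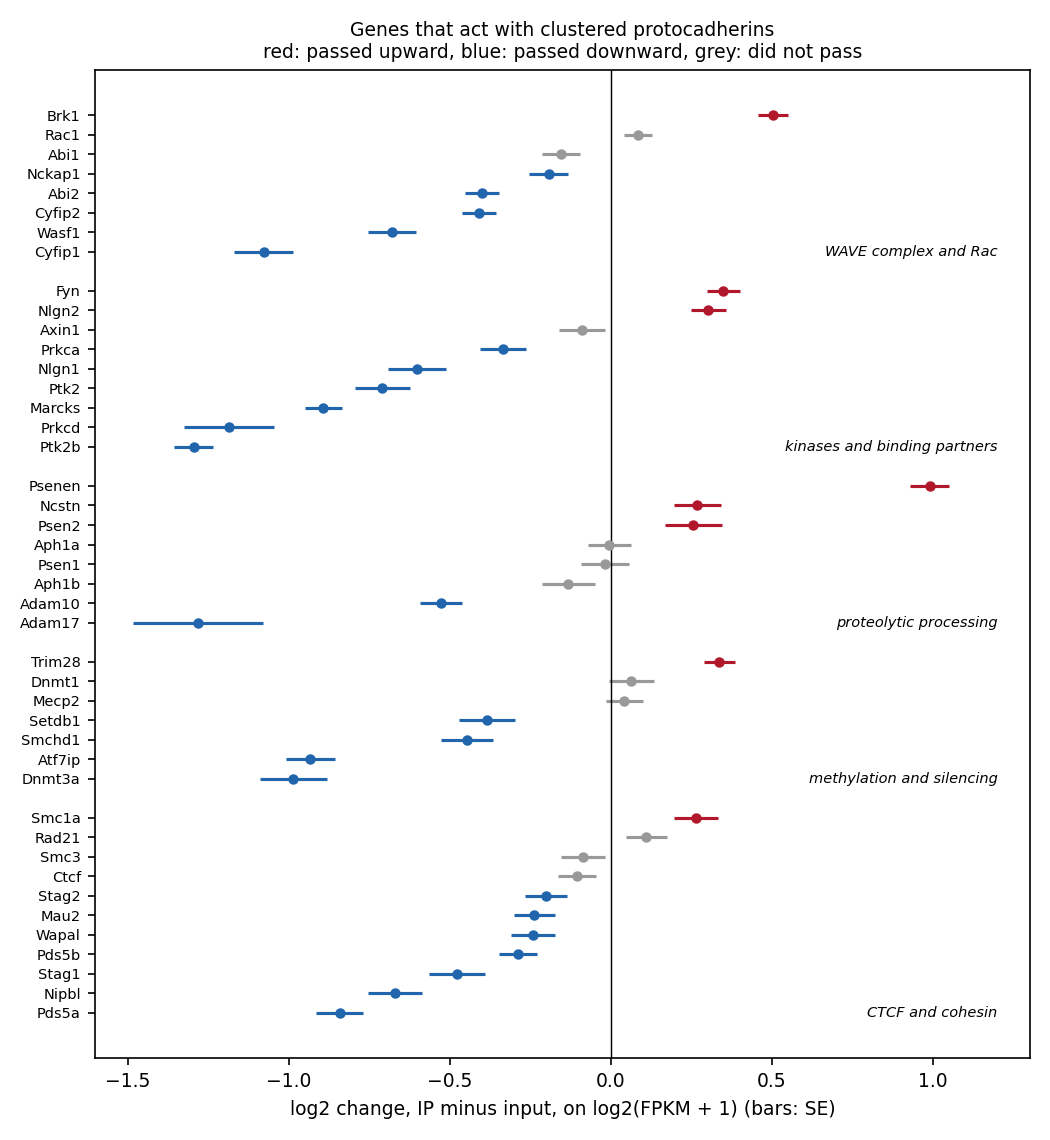
Log2 change of IP minus input on log2(FPKM + 1) (horizontal axis, bars show the SE) for the 43 tested genes of the list, grouped by role. Blue points (24) passed downward, red points (8) upward and grey points (11) did not pass, with Ptk2b, Adam17 and Prkcd at the lower end and Psenen at the upper end.

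As a check of the labels, Npy was at 105 and 99.2 FPKM in input and at 1240 and 1167 FPKM in IP replicates 1 and 2. Summed FPKM per library came to 334759 and 335119 in input and 423985 and 419349 in IP. Markers of other cells moved with the groups, and their part in the results above was not tested. All 5 markers of GABAergic neurons rose, among them Npy itself, whose gene drives Cre. Their summed level went from 640 to 668 FPKM in input to 6677 to 6869 FPKM in IP. Most of the IP sum was Npy and Sst, the latter at 4562 and 4756 FPKM in IP replicates 1 and 2. Ratios of IP to input were lower for Gad1 (4.79), Gad2 (3.36) and Slc32a1 (4.87). Lower markers were 3 of 5 for glutamatergic neurons (352 to 363 FPKM summed in input, 145 to 223 in IP), 4 of 5 for astrocytes (138 to 158 and 48.2 to 70.5) and 5 of 5 for oligodendrocytes (346 to 373 and 76.8 to 87.3). All 3 genes listed for oligodendrocyte precursors were lower (38.1 to 41.4 and 6.51 to 8.04). Most of that sum was Olig1, at 32.9 and 35.1 FPKM in input. All 5 markers of microglia (28.8 to 31.5 and 1.65 to 2.33) were lower, as was the 1 of 4 endothelial markers that was tested (2.75 to 3.14 and 0.581 to 0.633 over the 4). No marker was at 0 in all libraries. In such bulk samples, how many cells of a type gave RNA to a library and how much RNA each of them gave cannot be told apart.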

How the data were processed

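Amygdala RNA of 4 libraries (2 IP, 2 input, each of 3 pooled mice) was compared, with groups and replicate numbers from the sample titles. The source description of IP replicate 2 gives replicate 1, and the title was followed. TopHat with default parameters had aligned single-end reads to mm10 (iGenomes UCSC annotation), and the authors deposited Cufflinks FPKM per gene with confidence limits, per the series' design text and the file headers. Tool versions, strand-specific counting, read totals and any scaling between libraries are not given in the sources used here.

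Of 24490 entries, 8 with a failed status and 1280 with small RNA names were left out, the entry with the highest mean was kept for a symbol with several, and genes of at least 1 FPKM in at least 2 libraries were tested (12416). Values were transformed as log2(FPKM + 1), which understates changes of low genes, and tested two-sided in limma 3.58.1 under R 4.3.3 (lmFit, then eBayes with a trend). No block was used, with Benjamini-Hochberg adjustment over all genes tested at a threshold of 0.05. The p-values measure the spread between these pools. Data were also simulated for the IP and input comparison, with 200 of 12416 genes changed. There limma recovered 74.0% of genes with a log2 change of 1 and 99.0% of those with a change of 2. In the real comparison 70.9% of genes passed, so these rates need not hold for it or for genes as low as the beta genes.

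The design text pairs each IP with its own input. Deviations of replicate 1 from the group means correlated at 0.162 between IP and input. Exons were read from RefSeq (GRCm38.p6), and transcript lengths for the correction (a lowess fit per library with a span of 0.3) from GENCODE vM21. Deposited starts count from 0 and are printed 1-based. The other settings were pseudocounts of 0.1 and 5, no filter and a filter of 5 FPKM, rescaling to a common sum, quantile normalization, median-of-ratios size factors, eBayes with the robust option or without the trend, the replicate number as block, correction for transcript length, summed entries per symbol and each library left out in turn. The members and lists were chosen with earlier results of these data known. The genes named were the 5 highest members of each cluster, the C-type isoforms, the largest changes past the threshold in each cluster and in each group of the list of partner genes, and Npy. Others were named after their values were seen. Tables and figures used Python 3.11.15, pandas 2.3.3, numpy 2.4.6, scipy 1.17.1 and matplotlib 3.10.9.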

Additional observations from a re-analysis of the deposited data

How the results depend on the processing

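The count of beta genes past the threshold, 0 in each direction, was 1 lower without the filter, 2 lower after rescaling, 6 higher with quantile normalization, and 1 higher with size factors or without the trend (Pcdhb12) and with correction for transcript length (Pcdhb14). It was 0 with each library left out, with the replicate block and in the other settings. No beta gene reached a filter of 5 FPKM. As background, the share of all genes tested that passed downward was 28.9% without the filter and 54.1% after rescaling. The share that passed upward was 35.3% with quantile normalization, 40.3% with size factors, 36.4% without the trend and 35.5% with correction for transcript length. The gamma count, 0, was 1 lower after rescaling, with quantile normalization, with the replicate block and without input replicate 1, in each case Pcdhgc5 (log2 changes -0.998, -1.03, -0.66 and -1.15). With 1 library left out the count ran from 0 to 1 and the change of Pcdhgc5 from -1.15 to -0.17.

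Ratios of IP to input after rescaling were 0.769 for the beta sum, 0.374 for the gamma sum and 0.735 for alpha and gamma together. The partner genes numbered 2 higher after rescaling and 2 with quantile normalization, and 12 lower with correction for transcript length. With 1 library left out the higher count ran from 5 to 7, with 5 without input replicate 1. Among genes past the threshold before or after the change of setting, the log2 change turned its sign for Ncstn (-0.0504), Nlgn2 (-0.0315, and -0.00382 with quantile normalization), Psen2 (-0.0251), Smc1a (-0.0591) and Rac1 (-0.256, and -0.384 with quantile normalization), all after rescaling unless stated, and for Pcdhb22 (0.461) with quantile normalization. Beside Pcdhgc5, the replicate block moved Abi1 past the threshold, and it changed no other call among the tested genes named. The cause of these differences was not tested. The 14 beta genes with a mean under 1 FPKM rest on at most 112 implied reads per library.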
